A study of Mus musculus with 5 samples.

Results

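Chemokines and ligands of the tumour necrosis factor (TNF) superfamily are the signals by which a myeloid cell calls or instructs other cells, and their genes were followed here through 5 sorted populations of mouse bone marrow. The members were all genes whose symbol in the platform annotation begins with Ccl, Cxcl, Xcl, Cx3cl or Tnfsf and a digit, together with Tnf, Lta, Ltb, Pf4, Ppbp and Fasl. This gave 49 genes, 36 chemokines and 13 TNF superfamily ligands, of 19938 genes named from probe sets with a single symbol. Another 8 probe sets, shared by several genes of the Ccl21 and Ccl27 groups or of the Tnfsf12 and Tnfsf13 locus, were not used because they cannot be assigned to 1 gene.

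All cells came from untreated wild-type C57Bl/6 mice and were lineage-negative and positive for CD115, the receptor for colony-stimulating factor 1. The monocyte-dendritic cell progenitor (MDP) was sorted as CD117+ CD135+ cells, the common dendritic cell progenitor (CDP) as CD117int CD135+ cells and the common monocyte progenitor (cMoP) as CD117+ CD135- cells. Classical monocytes were Ly6C+ TremL4- and nonclassical monocytes Ly6C- TremL4+. Each population has 1 array, so no difference below has a replicate check, and no p-value or standard deviation is given. Of the genes of the gates, Csf1r, Treml4, Flt3 and Kit were examined and matched the labels, whereas Ly6C was not examined. Csf1r, which encodes CD115, lay between 10.03 and 12.21 on all 5 arrays. Treml4, whose product marks nonclassical monocytes, was at 11.78 on the nonclassical array and at 6.18 or lower on the others. Flt3, which encodes CD135, was at 10.75 in MDP and 10.74 in CDP and at 6.74 or lower on the others, and Kit, which encodes CD117, was at 8.16 or higher in the progenitors and at 5.79 or lower in the monocytes. No label gives the age or sex of the mice or how many were pooled for a sort, so the arrays may differ in ways that the populations do not explain.

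Values are log2 array signals as deposited, and differences are on that scale, with the population named first on top. To count as higher or lower, a gene needed a difference of 1 log2 unit (2-fold) and a brighter array at or above a floor of 6.27, the median of all named genes over the 5 arrays. In a sorted population measured as a whole, a gene made by a few cells and a gene made weakly by all of them cannot be told apart.

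Chemokines are small secreted proteins that bind G protein-coupled receptors and direct leukocyte movement. CC chemokines mostly draw monocytes, dendritic cells and lymphocytes. Many CXC chemokines draw neutrophils or, for the interferon-inducible members, activated T cells and natural killer cells. TNF superfamily ligands are trimers, usually made on the membrane and often shed, that act on receptors for inflammation, lymphocyte survival, costimulation or cell death. Monocytes are known as rapid producers of several of these ligands, and marrow monocytes leave for the blood under the control of chemokine receptors such as Ccr2.

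Most ligand genes gave little signal, as the plot of all 49 shows. Of the 49 genes, 28 lay under the floor on every array, 11 were at or above it on some arrays and 10 on all 5. The number at or above the floor was 13 in MDP, 14 in CDP, 11 in cMoP, 15 in classical monocytes and 15 in nonclassical monocytes. As a share of the 49 this ran from 22.4% to 30.6%, where 49.3% to 51.0% of all named genes passed. The 28 dim genes had values between 3.41 and 6.25, and none of them spanned more than 0.58 log2 units over the 5 arrays. They include the platelet chemokines Pf4 and Ppbp, the neutrophil chemokines Cxcl2, Cxcl3, Cxcl5 and Cxcl15, the stromal retention factor Cxcl12, the cell death ligand Fasl and the lymphotoxin gene Lta. Tied values are frequent in the deposited table. The same value on 2 or more arrays was found for 34 of the 49 members (69.4%), against 46.6% of all probe sets. Ccl8, Ccl12, Cxcl15, Tnfsf4, Tnfsf14 and Xcl1 were equal on all 5.

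**Figure D1:**
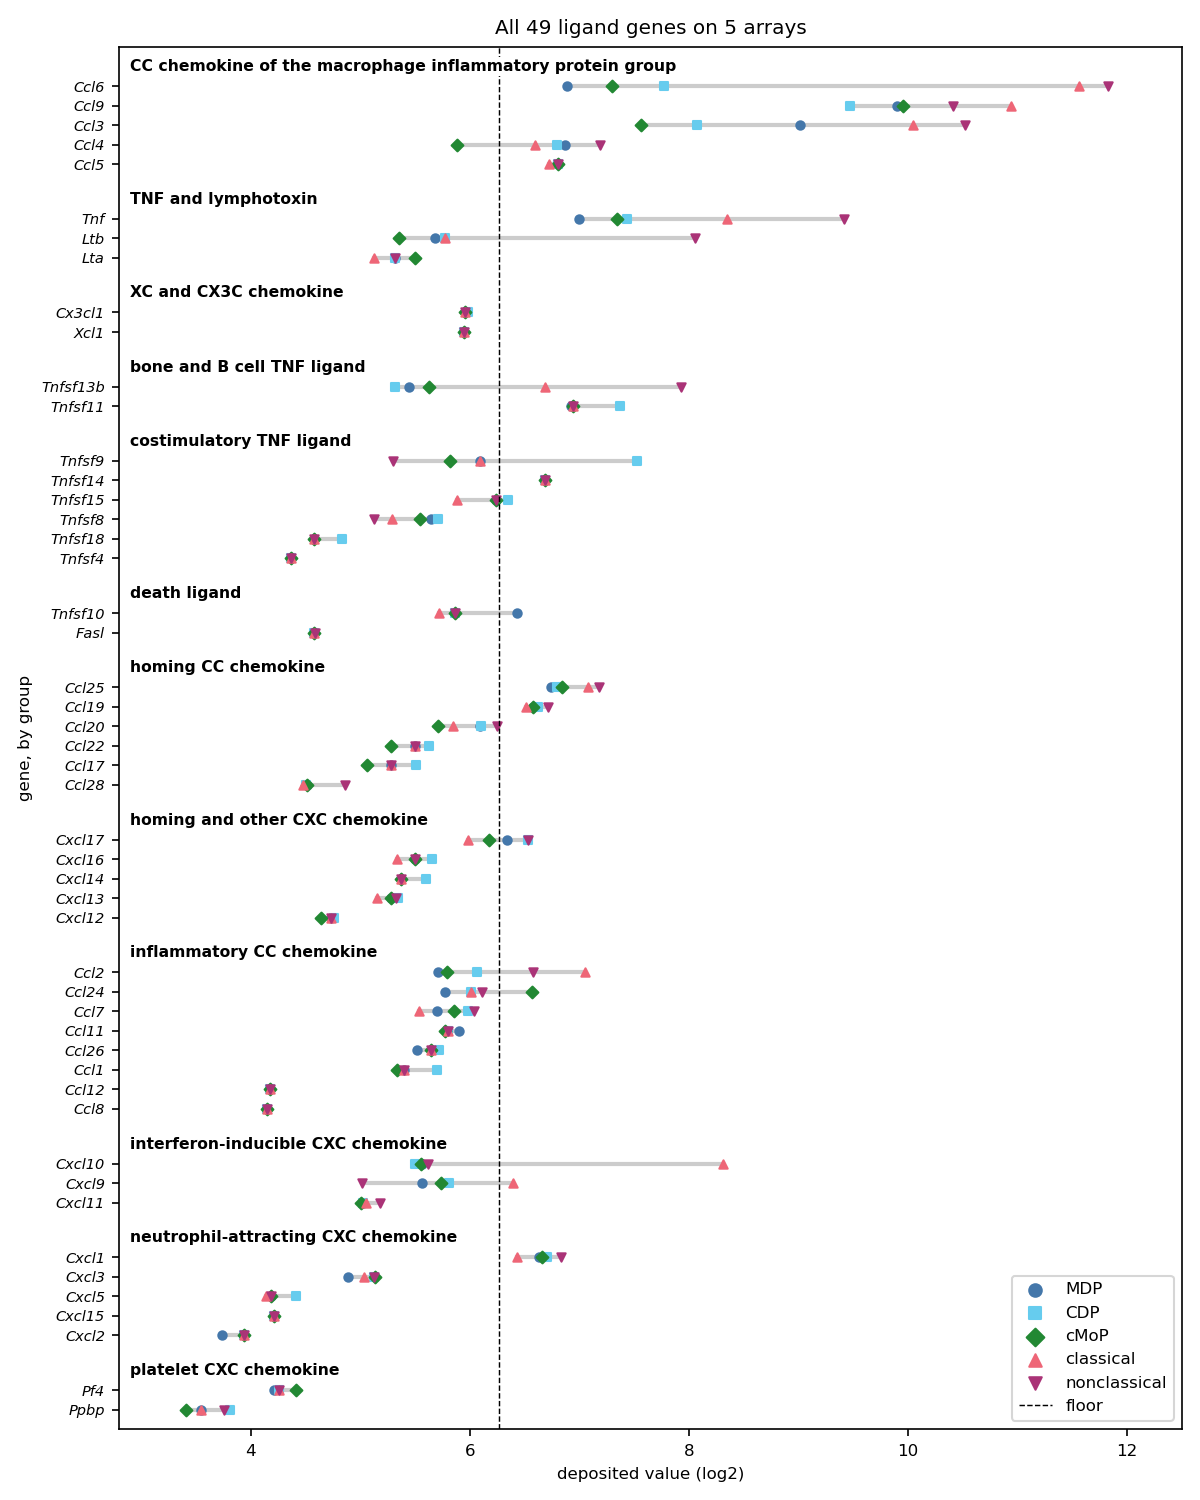
Deposited log2 value of each of the 49 ligand genes on the 5 arrays (symbols, 1 array per population), grouped by role, with the floor of 6.27 as a dashed line and a grey bar from the lowest to the highest value of each gene. Most genes lie left of the floor with nearly coincident symbols, and the long bars belong to Ccl6, Ccl3, Tnf, Ltb, Tnfsf13b, Tnfsf9, Cxcl10 and a few others.

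Altogether 9 of the 49 genes were counted in at least 1 of the 5 comparisons, where 12.4% of all named genes were. They are Ccl2, Ccl3 and Ccl6 of the CC chemokines, Cxcl9 and Cxcl10 of the CXC chemokines, and Tnf, Ltb, Tnfsf13b and Tnfsf9 of the TNF superfamily. The largest range among the 40 uncounted genes was 1.47 log2 units, that of Ccl9.

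The strongest signals of the family were those of neighbouring CC chemokine genes on chromosome 11. Ccl6, a mouse chemokine that acts through Ccr1, had values of 6.88 in MDP, 7.77 in CDP, 7.30 in cMoP, 11.56 in classical monocytes and 11.83 in nonclassical monocytes. Both monocyte arrays thus lay far above all 3 progenitor arrays. The difference of classical monocytes from cMoP was 4.26 log2 units, or 19.2-fold, and only 25 of the 19938 named genes had a larger positive difference in that comparison. Nonclassical and classical monocytes differed by 0.27.

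Ccl3, a macrophage inflammatory protein that acts on Ccr1, had another course. Its values were 9.01 in MDP, 8.07 in CDP, 7.56 in cMoP, 10.05 in classical monocytes and 10.52 in nonclassical monocytes. The cMoP array was the lowest of the 5, and the MDP array stood between the other progenitors and the monocytes. Ccl3 was 2.74-fold lower in cMoP than in MDP (-1.45) and 5.62-fold higher in classical monocytes than in cMoP (2.49). The difference of CDP from MDP was -0.94, just inside the threshold.

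Ccl9, a close relative of Ccl6 that also acts through Ccr1, was bright everywhere, with 9.90 in MDP, 9.47 in CDP, 9.95 in cMoP, 10.94 in classical monocytes and 10.41 in nonclassical monocytes. Its signal thus did not separate monocytes from progenitors as that of Ccl6 did. The difference of classical monocytes from cMoP was 0.99, just under the threshold, and 1.02 when each array was centred on its median.

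Ccl4, another macrophage inflammatory protein, lay near the floor with 6.86 in MDP, 6.79 in CDP, 5.89 in cMoP, 6.59 in classical monocytes and 7.19 in nonclassical monocytes. It shared with Ccl3 the lowest value in cMoP and the highest in nonclassical monocytes, and its largest difference between compared populations was -0.98, for cMoP against MDP. Ccl5, the chemokine RANTES of T cells and activated macrophages, was at 6.80 on 4 arrays and at 6.72 in classical monocytes. In the RefSeq gene table the 5 genes follow each other as Ccl5, Ccl9, Ccl6, Ccl3 and Ccl4 with no other protein-coding gene between them, and their ranges over the 5 arrays ran from 0.08 log2 units (Ccl5) to 4.95 (Ccl6).

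The other chromosome 11 cluster, Ccl2, Ccl7, Ccl11, Ccl12, Ccl8 and Ccl1, was dim. Ccl2, the main ligand of Ccr2 and a signal for monocyte exit from marrow, had 5.71 in MDP, 6.07 in CDP, 5.79 in cMoP, 7.05 in classical monocytes and 6.57 in nonclassical monocytes. Only the monocyte arrays passed the floor, and Ccl2 was at least 1.72-fold higher in classical monocytes than in cMoP (1.26). Its 5 neighbours were under the floor on all arrays, among them Ccl7 and Ccl12, which also bind Ccr2. Of the eotaxin genes, whose products draw eosinophils through Ccr3, Ccl24 passed the floor in cMoP alone, at 6.57, with 5.78 in MDP, 6.01 in CDP, 6.01 in classical monocytes and 6.11 in nonclassical monocytes, and it was not counted in any comparison.

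**Figure D2:**
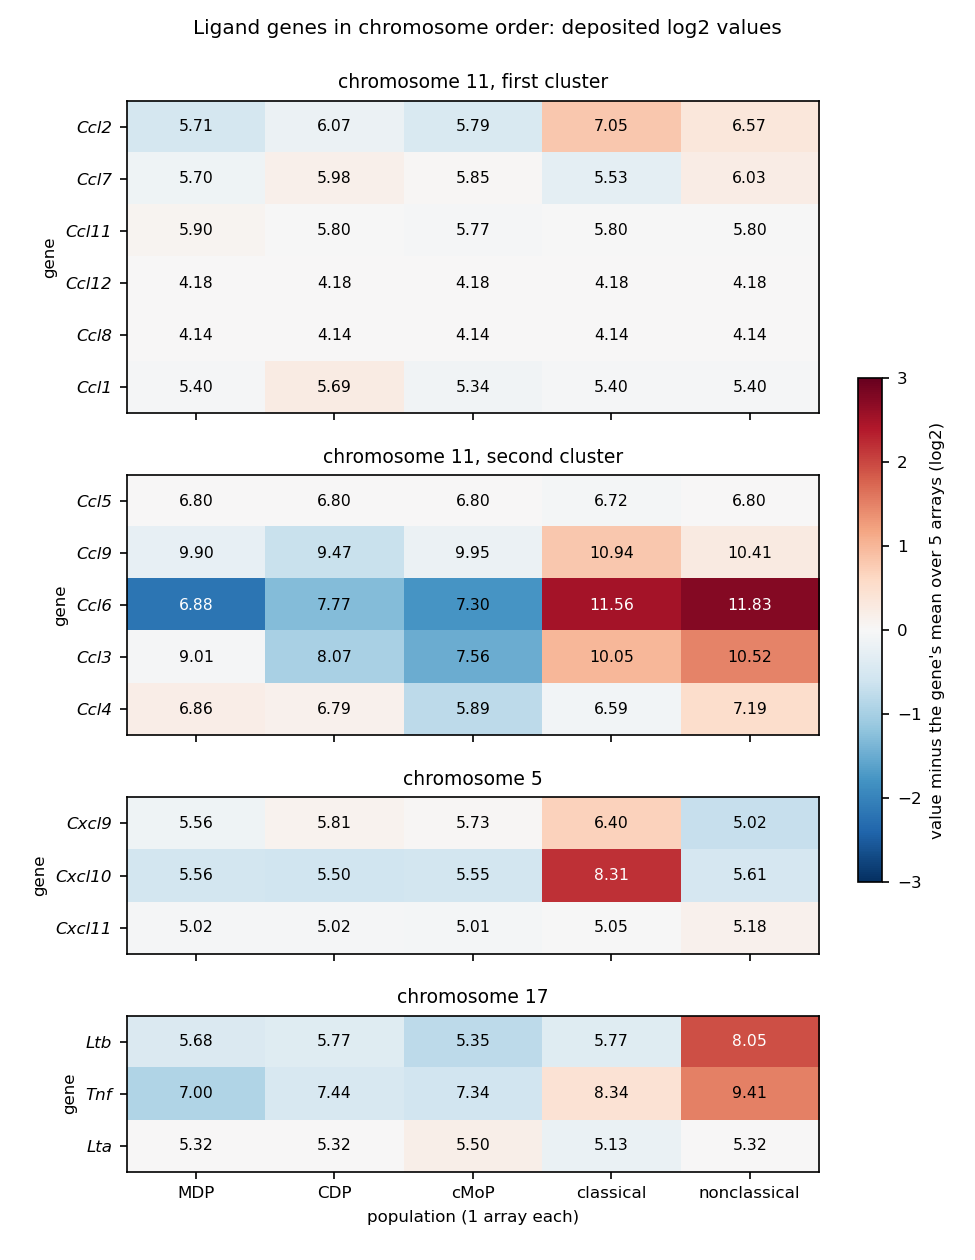
Deposited log2 values (numbers) of ligand genes in chromosome order on the 5 arrays, coloured by the difference from the gene's own mean over the arrays. Genes of 1 cluster differ in course: Ccl6 spans 6.88 to 11.83 while Ccl5 stays between 6.72 and 6.80, Cxcl10 stands out at 8.31 in classical monocytes, and Ltb and Tnf are highest in nonclassical monocytes while Lta stays at 5.50 or lower.

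The homing chemokines that position lymphocytes and dendritic cells in tissues showed no difference past the threshold. Of the 6 CC genes of this kind, Ccl17, Ccl20, Ccl22 and Ccl28 were under the floor throughout. Ccl19, a ligand of Ccr7, ranged from 6.52 to 6.71, and its 5 probe sets spanned 0.19 to 0.38 log2 units each. Ccl25, a ligand of Ccr9, ranged from 6.74 to 7.18, and its second probe set spanned only 0.04. Cxcl1, a neutrophil chemokine that binds Cxcr2, had values between 6.43 and 6.83 and no difference past the threshold either. Of the other CXC genes, Cxcl17 ranged from 5.98 to 6.53, and Cxcl12, Cxcl13, Cxcl14 and Cxcl16 were under the floor throughout. Xcl1 and Cx3cl1, the ligands of Xcr1 and Cx3cr1, were under the floor on all 5 arrays.

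The interferon-inducible genes Cxcl10 and Cxcl9 were highest in classical monocytes. Cxcl10, a ligand of Cxcr3 that draws activated T cells, was at 5.56 in MDP, 5.50 in CDP, 5.55 in cMoP, 8.31 in classical monocytes and 5.61 in nonclassical monocytes. It passed the floor on the classical array alone, where it was at least 4.11-fold higher than in cMoP (2.75), and nonclassical monocytes were at least 4.11-fold lower than classical ones (-2.70). Cxcl9, another ligand of Cxcr3, had 5.56 in MDP, 5.81 in CDP, 5.73 in cMoP, 6.40 in classical monocytes and 5.02 in nonclassical monocytes. Its classical value was just past the floor, so the difference of -1.38 between nonclassical and classical monocytes gives a fold of at least 1.09 and rests on dim signal. Cxcl11, which follows Cxcl10 on chromosome 5, was between 5.01 and 5.18. The RefSeq table lists it as a transcribed pseudogene in this C57BL/6J assembly, in which strain the gene is known to carry a disabling frameshift.

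The promoters of Cxcl10 and Cxcl9 are printed because both genes, which lie on chromosome 5 with Art3 between them, were highest on the classical monocyte array. Each sequence is the 250 bases before the RefSeq transcription start (GRCm38.p6), written 5′ to 3′ on the gene's strand. Capitals mark matches to an NF-kappaB motif (GGG and CC separated by any 5 bases) and to an interferon-stimulated response element (GAAA and GAAA separated by any 2 bases). Both strands were searched, and overlapping matches run together. Cxcl10 lies at chr5:92348890-92349139 and Cxcl9 at chr5:92328080-92328329, both on the minus strand.
Cxcl10: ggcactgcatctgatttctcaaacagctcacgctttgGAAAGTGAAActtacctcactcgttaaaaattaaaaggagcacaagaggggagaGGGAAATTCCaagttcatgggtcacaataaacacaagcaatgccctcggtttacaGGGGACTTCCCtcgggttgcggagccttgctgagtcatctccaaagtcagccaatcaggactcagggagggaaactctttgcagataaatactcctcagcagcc
Cxcl9: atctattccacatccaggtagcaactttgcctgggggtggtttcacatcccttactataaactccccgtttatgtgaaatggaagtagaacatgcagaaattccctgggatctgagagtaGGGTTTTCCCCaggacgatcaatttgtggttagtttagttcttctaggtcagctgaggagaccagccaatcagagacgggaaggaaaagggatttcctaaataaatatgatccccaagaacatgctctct
The Cxcl10 window held 1 match to the interferon element, GAAAGTGAAA, beginning 213 bases before the start, and 3 NF-kappaB matches, of which 2 overlap. The Cxcl9 window held 2 overlapping NF-kappaB matches and no match to the interferon element. The interferon element is rare, with a match in 2.98% of the 32851 promoters of the table, whereas 45.8% hold the loose NF-kappaB motif. A match describes the letters and is not evidence of binding.

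Among the TNF superfamily, Tnf and its neighbour Ltb were highest in nonclassical monocytes. Tnf, the prototype inflammatory cytokine of macrophages, had values of 7.0 in MDP, 7.44 in CDP, 7.34 in cMoP, 8.34 in classical monocytes and 9.41 in nonclassical monocytes. The signal was above the floor on every array, and each monocyte array was above all progenitor arrays. Classical monocytes were 2.0-fold higher than cMoP (1.0), a difference right at the threshold, which was 0.88 after quantile normalization. Nonclassical monocytes were 2.10-fold higher than classical ones (1.07).

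Ltb encodes lymphotoxin beta, which anchors lymphotoxin alpha to the membrane and signals through the receptor Ltbr to organise lymphoid tissue. It was at 5.68 in MDP, 5.77 in CDP, 5.35 in cMoP, 5.77 in classical monocytes and 8.05 in nonclassical monocytes. Only the nonclassical array passed the floor, at least 3.44-fold above the classical array (2.28), and 76 named genes had a larger positive difference there. Lta, the partner that Ltb needs for its usual heterotrimer, was under the floor on all arrays, between 5.13 and 5.50, and was at 5.32 in nonclassical monocytes. Ltb is also a gene of lymphocytes, so their markers were set beside it. On the nonclassical array 2 of the 15 measured T and NK cell markers were at or above the floor, Cd8a at 6.43 and Prf1 at 6.40. Cd3d, Cd3e and Cd3g were at 4.78, 6.08 and 4.27. Of the 7 B cell markers only Cd79b was above the floor, and it was so on all 5 arrays, at 9.28 in nonclassical monocytes, 8.41 in classical monocytes and 9.0 to 9.50 in the progenitors. Ms4a1, Pax5 and Cd79a were at 4.06, 5.53 and 5.30 in nonclassical monocytes. The part of lymphocytes in the Ltb value was not tested.

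Tnfsf13b encodes BAFF, the survival factor of B cells, and had 5.45 in MDP, 5.32 in CDP, 5.63 in cMoP, 6.69 in classical monocytes and 7.93 in nonclassical monocytes. The progenitor arrays lay together under the floor, and the nonclassical array was the highest. Classical monocytes were at least 1.34-fold higher than cMoP (1.06, and 0.99 after quantile normalization), and nonclassical monocytes were 2.36-fold higher than classical ones (1.24).

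The promoters of the 3 ligand genes that led in nonclassical monocytes are shown for comparison, with the same windows and capitals. Tnf lies at chr17:35202008-35202257 on the minus strand, Ltb at chr17:35194257-35194506 on the plus strand, and the second of the 2 listed starts of Tnfsf13b at chr8:10006383-10006632 on the plus strand.
Tnf: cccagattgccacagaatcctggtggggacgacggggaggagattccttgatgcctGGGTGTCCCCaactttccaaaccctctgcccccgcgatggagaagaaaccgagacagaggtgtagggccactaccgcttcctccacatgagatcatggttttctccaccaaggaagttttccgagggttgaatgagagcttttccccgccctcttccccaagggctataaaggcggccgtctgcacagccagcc
Ltb: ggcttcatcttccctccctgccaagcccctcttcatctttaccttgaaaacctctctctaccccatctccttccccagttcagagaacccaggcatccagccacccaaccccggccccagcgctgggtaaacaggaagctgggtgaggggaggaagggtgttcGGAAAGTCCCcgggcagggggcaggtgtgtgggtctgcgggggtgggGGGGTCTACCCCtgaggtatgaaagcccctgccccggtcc
Tnfsf13b: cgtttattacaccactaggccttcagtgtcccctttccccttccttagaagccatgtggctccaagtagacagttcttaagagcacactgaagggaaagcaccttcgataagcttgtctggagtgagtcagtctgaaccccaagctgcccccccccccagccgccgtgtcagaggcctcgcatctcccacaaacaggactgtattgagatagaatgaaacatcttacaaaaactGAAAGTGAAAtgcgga
The Tnf window held 1 match to the NF-kappaB motif, beginning 194 bases before the start, and the Ltb window held 4, of which 3 overlap. Neither held the interferon element. The Tnfsf13b window held the same letters as Cxcl10, GAAAGTGAAA, at 16 to 7 bases before the start, and no NF-kappaB match, and the window of its first listed start held neither. Of the 8 promoters listed for 7 counted genes, 4 held the NF-kappaB motif and 2 the interferon element. Of the 30 promoters of uncounted members, 15 and 2 did, so the NF-kappaB motif was as frequent in both sets. The windows of the counted genes Ccl3 and Ccl6, which are not printed, held neither the NF-kappaB motif nor the interferon element. No window for Ccl2 or Tnfsf9 was used here.

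The letters of the TATA box were more frequent in the windows of the family than in all windows, although most members lacked them. TATAAA on the gene's strand lay anywhere in the window in 13 of the 38 promoters listed for 36 members (34.2%), against 7.59% of all promoters. Between 40 and 20 bases before the start, the usual place of a TATA box, they were found in 7 of the 38 (18.4%), against 1.91%. Those 7 are Tnfsf18, Ppbp, Cxcl3, Cxcl15, Ccl12, Ccl8 and Tnf, and of these only Tnf had signal above the floor.

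Tnfsf9 was the single ligand gene that led a progenitor population by 1 log2 unit or more. It encodes the ligand of the T cell costimulatory receptor Tnfrsf9 and had 6.09 in MDP, 7.53 in CDP, 5.82 in cMoP, 6.09 in classical monocytes and 5.29 in nonclassical monocytes. CDP alone passed the floor, at least 2.39-fold above MDP (1.44), and cMoP was at least 2.39-fold below CDP (-1.71). A natural killer cell marker also stood out in CDP: Klrd1 was at 8.0 in CDP, against 6.05 in MDP, while Nkg7, of the same list, was lower in CDP, at 7.77 against 9.97 in MDP. These were the 1 higher and 1 lower of the 15 T and NK cell markers, against 0.602% and 0.552% of all genes. Of the 15, 4 were at or above the floor in CDP, against 2 in MDP. Cd3d, Ncr1, Gzma and Gzmb were under the floor on all arrays, and the part of such cells in the Tnfsf9 value was not tested. Other ligands of costimulation were not counted. Tnfsf14 was at 6.69 on all arrays, Tnfsf15 ranged from 5.88 to 6.34, and Tnfsf4, Tnfsf8 and Tnfsf18 were under the floor throughout.

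Tnfsf11, the RANK ligand that drives osteoclast formation, was between 6.93 and 6.94 on 4 arrays and at 7.37 in CDP. Tnfsf10, the death ligand TRAIL, was past the floor in MDP alone, at 6.43, with 5.87 in CDP and cMoP, 5.71 in classical monocytes and 5.87 in nonclassical monocytes. Neither was counted. The TNF ligands Cd40lg, Cd70 and Eda, whose symbols fall outside the naming rule, were under the floor on all arrays.

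**Figure D3:**
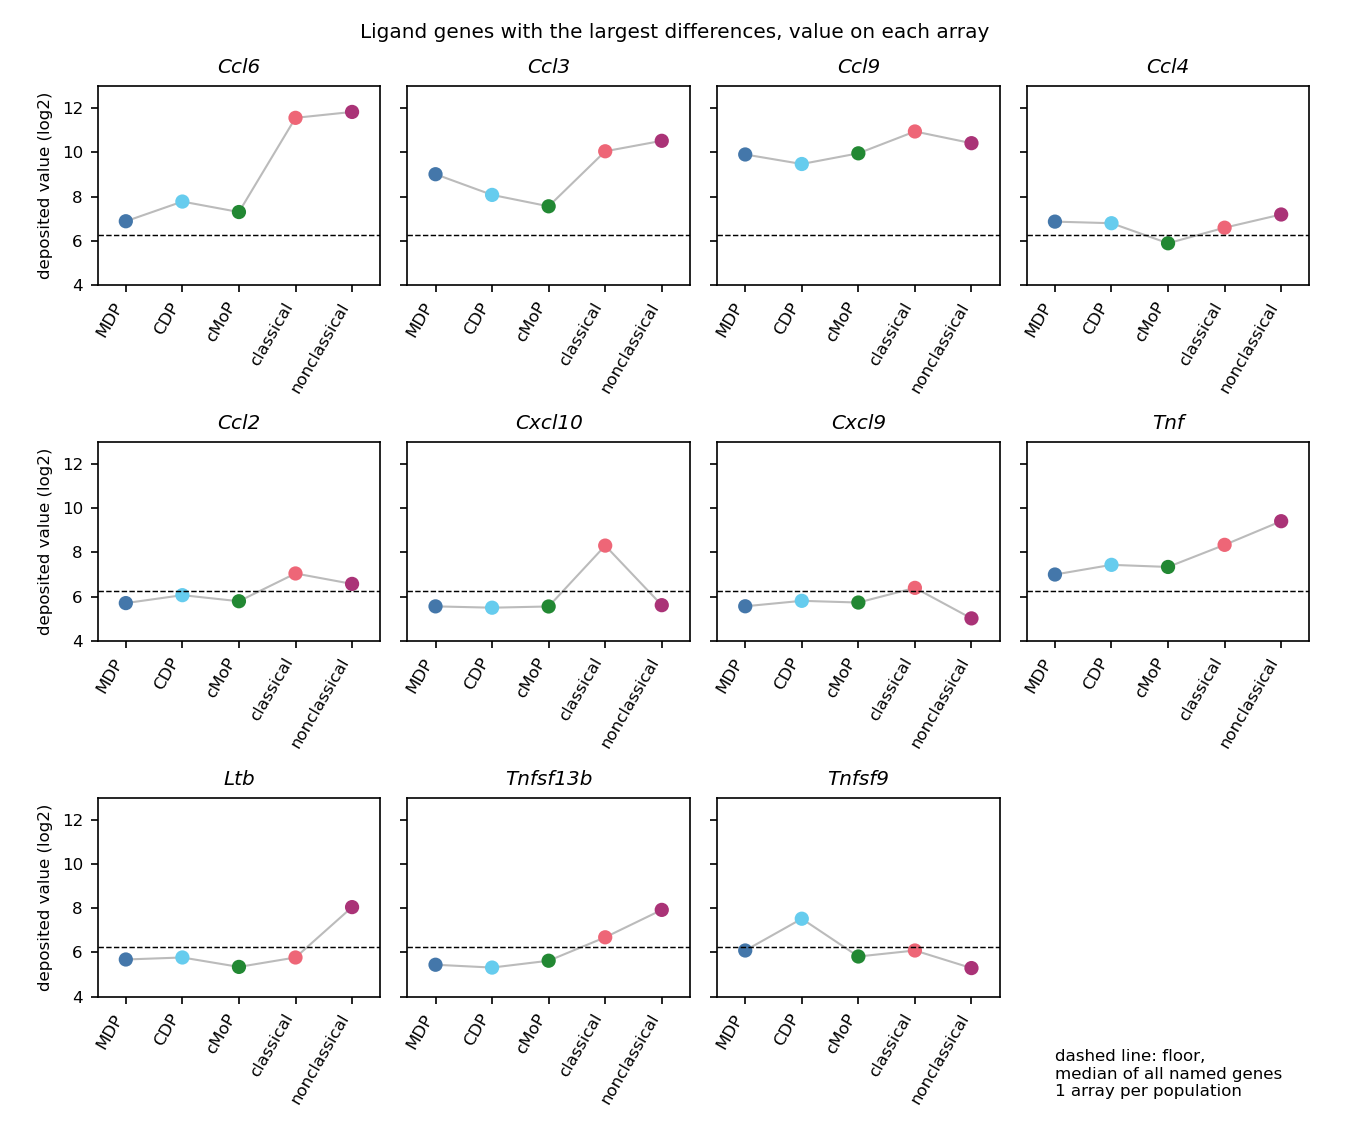
Deposited log2 value of the 9 counted ligand genes and of Ccl9 and Ccl4 on each array, with 1 point per population and the floor of 6.27 as a dashed line. Ccl6 reaches 11.56 and 11.83 on the monocyte arrays, Cxcl10 is above the floor on the classical array alone, Ltb on the nonclassical array alone and Tnfsf9 in CDP alone.

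Compared across the family, few ligands separated the progenitors. The dendritic progenitor was compared with its parent: 1 of 49 genes was higher in CDP than in MDP (Tnfsf9) and 0 were lower, against 0.602% and 0.552% of all named genes. Ccl6 at 0.89 and Ccl3 at -0.94 came closest without reaching the threshold. The monocyte progenitor was set against the same parent: 0 genes were higher in cMoP than in MDP and 1 was lower (Ccl3), against 0.737% and 0.717% of all genes. Between cMoP and CDP, 0 were higher and 1 lower (Tnfsf9), against 1.69% and 1.15%. A single gene in 49 is a value of that gene and not of the family. By sign alone, 31 members were above 0 and 8 below for CDP against MDP (median 0.06, against 0.00 over all genes). For cMoP against CDP 9 were above and 30 below (median -0.07, against 0.00), and for cMoP against MDP 16 and 16. These 3 comparisons share their arrays pair by pair, so they are not independent of each other. The median over all named genes was itself 6.32 on the CDP array, against 6.27 in MDP and 6.26 in cMoP. The signs of the members were not separated from this shift of the array, and all genes were not counted by sign.

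The step from cMoP to the classical monocyte involved more of the family. In it 6 of 49 genes were higher in classical monocytes (Ccl2, Ccl3, Ccl6, Cxcl10, Tnf and Tnfsf13b) and 0 were lower, against 3.62% and 2.27% of all genes. The median difference over the 49 was 0.00, as over all genes, with 20 members above 0, 16 below and 13 equal on both arrays. The equal ones are 26.5% of the members, against 20.5% of all genes. Between the monocyte subsets 3 genes were higher in nonclassical monocytes (Ltb, Tnf and Tnfsf13b) and 2 were lower (Cxcl9 and Cxcl10), against 1.87% and 5.17% of all genes. The medians were 0.01 for the 49 and 0.01 for all genes, with 25 members above 0, 6 below and 18 equal. Here the equal ones are 36.7% of the members, against 13.4% of all genes.

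Over all 5 arrays, 3 members were monocyte genes, meaning that both monocyte values lay at least 1 log2 unit above all progenitors. They are Ccl3, Ccl6 and Tnfsf13b, against 1.32% of all genes. After quantile normalization 1 remained, Ccl6. No member was a progenitor gene (0 of 49, against 0.436%). A lead of 1 log2 unit over the next array was found for 5 members (against 2.6% of all genes). Tnfsf9 led in CDP (1 of 49, against 0.11%), Cxcl10 in classical monocytes (1 of 49, against 0.602%), and Ltb, Tnf and Tnfsf13b in nonclassical monocytes (3 of 49, against 1.59%). In MDP and cMoP 0 members led, against 0.135% and 0.155% of all genes.

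**Figure D4:**
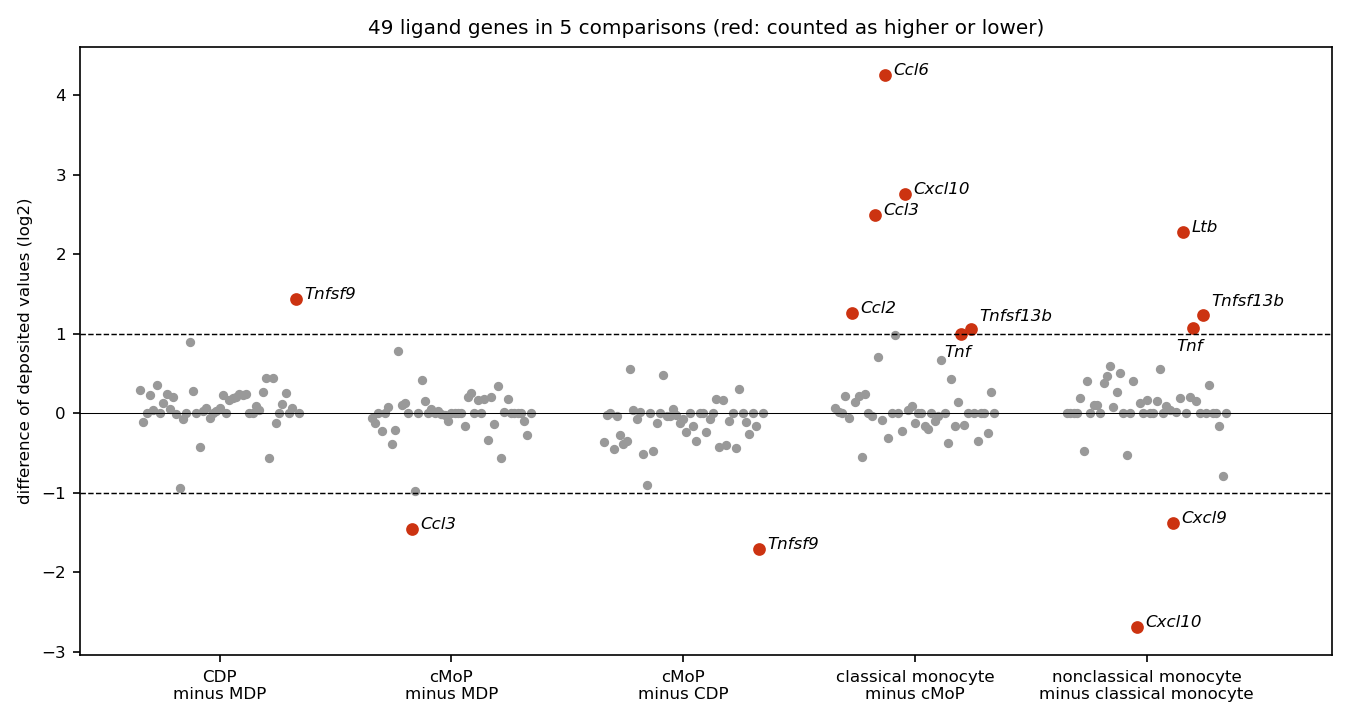
Difference in deposited log2 value for each of the 49 ligand genes (points, in alphabetical order from left to right) in the 5 comparisons, with dashed lines at 1 and -1. Red points are the genes counted as higher or lower: 1, 1 and 1 in the progenitor comparisons, 6 in classical monocytes against cMoP and 5 in nonclassical against classical monocytes.

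Markers of neutrophils, which also make Ccl3, Ccl6 and Tnf, differed in the same comparison, mostly upward in classical monocytes. Of 12 measured markers, the number at or above the floor was 5 in MDP, 6 in CDP, 7 in cMoP, 7 in classical monocytes and 5 in nonclassical monocytes, with list medians between 5.79 and 6.76. Of these 12, 5 were higher in classical monocytes than in cMoP and 1 was lower, against 3.62% and 2.27% of all genes. The higher genes were Mmp8 (11.28 against 7.02), Cd177 (9.88 against 6.89), S100a8 (12.64 against 11.23), S100a9 (12.07 against 8.41) and Ngp (6.62 against 5.09). The lower gene was Cxcr2 (5.51 against 6.88). S100a8 and S100a9 are made by classical monocytes as well. Ly6g, Ltf, Mmp9 and Retnlg were under the floor on all arrays. Camp (6.89 in classical monocytes against 6.29 in cMoP) and Csf3r (9.93 against 8.96) were above cMoP without reaching the threshold. In nonclassical against classical monocytes 0 of the 12 were higher and 4 were lower, against 1.87% and 5.17% of all genes. The lower genes were Mmp8, Cd177, S100a8 and S100a9, at 4.32, 6.89, 7.86 and 8.18 in nonclassical monocytes, whereas Csf3r was at 10.31. The part of neutrophils in the Ccl3, Ccl6, Cxcl10, Ccl2 and Tnf values was not tested. Of 12 macrophage markers, 3 were higher in classical monocytes than in cMoP and 0 were lower, against 3.62% and 2.27% of all genes. The higher ones were Adgre1 (9.65 against 7.36), Hmox1 (9.84 against 6.87) and Siglec1 (6.78 against 5.73). Adgre1 was higher still in nonclassical monocytes, at 11.25. C1qa, C1qb, C1qc and Vcam1 were under the floor on all arrays, and the part of macrophages in these results was not tested. Of 12 megakaryocyte and platelet markers 8 were measured, and 0 of these were counted in a comparison, where 12.4% of all named genes were. The number at or above the floor was 5 in each progenitor, 3 in classical monocytes and 7 in nonclassical monocytes. Their median difference of nonclassical from classical monocytes was 0.23, against 0.01 over all genes. Pf4 and Ppbp, themselves platelet genes, were dim on every array, at 4.42 or lower and 3.81 or lower. The part of platelets in the ligand values was not tested.

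Between the monocyte subsets, where Ltb, Tnf and Tnfsf13b were counted, 1 basophil marker and 1 stromal marker were counted as well. Of 10 basophil, mast cell and eosinophil markers, 3 were at or above the floor in nonclassical monocytes, against 2 in classical monocytes, and the median difference of the list was 0.33, against 0.01 over all genes. Of the 10, 1 was higher in nonclassical monocytes and 0 were lower, against 1.87% and 5.17% of all genes. The higher gene was Prss34, a basophil protease (7.86 against 6.52), which was at 6.18 to 6.52 in the progenitors. Mcpt8, another, was at 7.5 against 6.71, and at 7.99 to 8.95 in the progenitors. Cpa3, Fcer1a, Ms4a2 and Epx were under the floor on all arrays. Of 9 markers of stroma and endothelium, 4 were at or above the floor in nonclassical monocytes, against 3 in classical monocytes, and the median difference was 0.26. Of the 9, 1 was higher in nonclassical monocytes, Pdgfrb (6.53 against 5.49), and 0 were lower. Pdgfrb was also at 6.53 in cMoP, 6.56 in CDP and 7.18 in MDP. Pdgfra, Lepr and Cdh5 were under the floor on all arrays. The part of these cells in the values of the 3 ligand genes was not tested.

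The receptors for these ligands were measured on the same arrays. Of 22 chemokine receptor genes, 5 were counted in a comparison, where 12.4% of all named genes were, and 12 were under the floor throughout. Ccr1, the receptor for Ccl3, Ccl6 and Ccl9, was at 3.97 in MDP, 3.87 in CDP, 4.10 in cMoP, 7.99 in classical monocytes and 3.65 in nonclassical monocytes. It thus passed the floor in classical monocytes alone, while the ligands Ccl6 and Ccl3 were high on both monocyte arrays. Ccr2, the receptor for Ccl2, had values of 10.25, 11.12, 10.37, 11.92 and 11.29 in MDP, CDP, cMoP, classical and nonclassical monocytes. Its signal was high everywhere, and the difference of classical monocytes from cMoP was 1.55. Cxcr3, the receptor for Cxcl9 and Cxcl10, stayed between 6.04 and 6.72.

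Cx3cr1, the receptor of nonclassical monocytes for Cx3cl1, was at 9.03 in MDP, 10.37 in CDP, 8.57 in cMoP, 10.54 in classical monocytes and 12.30 in nonclassical monocytes, whereas its ligand gene was under the floor. Ccrl2, a receptor that binds chemerin without signalling, was higher in nonclassical than in classical monocytes (7.77 against 6.56). Cxcr2, the neutrophil receptor, was highest in MDP, at 7.55, with 5.37 in CDP, 6.88 in cMoP, 5.51 in classical monocytes and 5.22 in nonclassical monocytes.

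Of 28 TNF receptor genes, 7 were counted in a comparison, against the same 12.4% of all genes, and 9 were under the floor throughout. In classical monocytes 4 were higher than in cMoP and 1 was lower, against 3.62% and 2.27% of all genes. Tnfrsf1b, the second receptor for TNF, had 7.87 in MDP, 8.11 in CDP, 8.41 in cMoP, 10.09 in classical monocytes and 11.54 in nonclassical monocytes. Like Tnf itself, its gene was thus highest in nonclassical monocytes and next in classical ones. Tnfrsf1a, the widely expressed TNF receptor, ranged from 9.25 to 10.11 and was not counted.

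Fas, the death receptor for Fasl, was at 7.88 in classical monocytes against 5.48 in cMoP, and Cd40, the receptor for Cd40lg, at 7.54 against 6.46. Tnfrsf21, a death receptor, was at 10.31 against 8.96. Cd27, the receptor for Cd70 and a gene of early progenitors, ran the other way, with 6.22 in classical monocytes against 7.90 in cMoP. The BAFF receptor Tnfrsf13c was lower in cMoP than in CDP (7.02 against 8.06), and Tnfrsf26 was higher (7.90 against 6.39). Ltbr ranged from 7.82 to 8.42, and Tnfrsf9, the receptor for the CDP ligand Tnfsf9, was under the floor on all arrays.

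**Figure D5:**
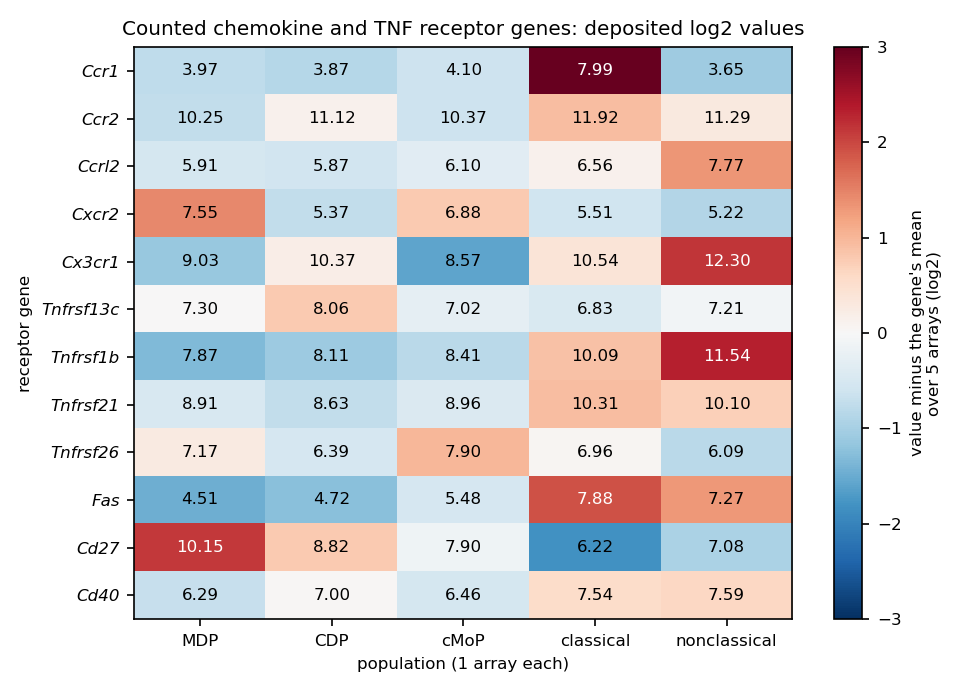
Deposited log2 values (numbers) of the 12 chemokine and TNF receptor genes counted in at least 1 comparison, on the 5 arrays, coloured by the difference from the gene's own mean. Ccr1 stands out at 7.99 in classical monocytes, and Cx3cr1 and Tnfrsf1b are highest in nonclassical monocytes.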

How the data were processed

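RNA from 5 sorted mouse marrow populations was biotin-labelled and measured on expression arrays, 1 per population, per the labels' protocols. The deposited table covers 35556 probe sets, with a single value per array. Its values were read as log2 from their range, 1.59 to 14.24. The sources used here name no log base, software, background correction or normalization, and another base would change every fold. The deposited log2 values had array medians of 6.02 to 6.16 and were used without further scaling. Whether the authors centred or scaled the arrays stays unknown. In 46.6% of probe sets at least 2 arrays hold identical values, whose origin was not tested.

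Of the probe sets, 21789 carry 1 symbol in the platform annotation, 1621 carry several and 12146 are unnamed here. The probe set with the highest mean stood for a gene, and Ccl19 and Ccl25 have more than 1. All 49 members were found in the RefSeq gene table (GRCm38.p6) by Entrez identifier, with 0 changed symbols. That table was used for biotypes and gene order only, since no source names the array's build.

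Differences, counts and medians were computed with Python 3.11.15, numpy 2.4.6 and pandas 2.3.3, and figures drawn with matplotlib 3.10.9. The size rule was tested on simulated data. For folds, a lower value under the floor was set to the floor and the fold given as a bound. Members counted in a comparison, or at or above the floor on all arrays, are named with values, as are receptors counted in a comparison and markers beside the members they touch. Ccl4, Ccl24, Cxcl11, Cxcl17, Lta, Tnfsf10, Tnfsf15 and the receptors that were not counted were added after their values were seen. The members, lists and rules were chosen with earlier results of these data known. RefSeq promoter windows (GRCm38.p6) were found for 36 of the 49 members, and the 250 bases before the start were searched. Protein sequences were not used here. The 5 alternatives were quantile normalization, median centring, averaging a gene's probe sets, a floor at the upper quartile of all named genes (7.93) and no floor.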

Additional observations from a re-analysis of the deposited data

How the results depend on the processing

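The same 9 genes were counted after quantile normalization, after centring, after averaging each gene's probe sets and without a floor. Centring added Ccl9 (1.02 for classical monocytes against cMoP). Of the members, averaging alters only Ccl19 and Ccl25, and removing the floor only admits genes, so neither could drop a counted gene. No counted difference changed sign after quantile normalization or centring, and the other alternatives left the values of the counted genes as they were. After quantile normalization Tnf and Tnfsf13b were at 0.88 and 0.99 for classical monocytes against cMoP, and the monocyte genes numbered 1 in place of 3, without Ccl3 and Tnfsf13b. The floor at the upper quartile, which admits fewer genes by construction, left 5 of the 9 genes, without Ccl2, Cxcl9, Tnfsf13b and Tnfsf9. It gave 0 members higher in CDP than in MDP, 0 lower in cMoP than in CDP and 1 lower in nonclassical than in classical monocytes, and 3 members led a population. At that floor 2, 2, 1, 5 and 5 members had signal in MDP, CDP, cMoP, classical and nonclassical monocytes. The other 60 values of the counts over the family stayed within 1.5 times those reported, a bound that takes 6 falling to 4 as unchanged. They include the counts after averaging and without a floor. No paired analysis was possible because each population has 1 array. Signal near the floor limits Cxcl9, Ccl2, Ccl4 and Ccl24.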

Other observations

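A list of 24 genes of the NF-kappaB response, of which 23 were measured, was followed beside the ligands because several ligand genes are known targets of that pathway. Of these, 5 were higher and 0 lower in classical monocytes than in cMoP (median difference 0.47, against 0.00 over all genes), where 3.62% and 2.27% of all named genes were. In nonclassical against classical monocytes 6 were higher and 1 lower (median 0.44, against 0.01), where 1.87% and 5.17% of all named genes were. Il1b, the gene of the cytokine interleukin-1 beta, was at 9.46 in nonclassical monocytes and at 5.03 or lower on the other arrays. Nfkbiz, an inducible regulator of NF-kappaB, was at 10.65 in nonclassical against 8.30 in classical monocytes, and Nfkbia, the main inhibitor, at 10.29 against 8.94. Tnfaip3, a deubiquitinase that restrains TNF signalling, was at 8.29 against 7.23. Tnfaip2 ran the other way, with 6.84 in nonclassical against 9.50 in classical monocytes, and Il6 and Il1a were under the floor on all arrays.

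Of 10 genes for proteins that shed or trim ligands, 2 were counted, where 12.4% of all named genes were. Furin, a convertase that processes BAFF among other proteins, was at 8.41 in classical monocytes against 7.36 in cMoP. Dpp4, the peptidase that truncates Cxcl10 and other chemokines, was at 7.72 in cMoP against 9.64 in CDP and 9.17 in MDP. Adam17, the sheddase of TNF, ranged from 8.64 to 9.51.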
